A study of Mus musculus with 2 samples.

Results

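The nuclear-encoded genes of oxidative phosphorylation were followed in mouse T cells that were being induced to become regulatory T (Treg) cells with or without Tubastatin A (TSA), an inhibitor of the deacetylase HDAC6. The genes were taken by symbol: all rows starting with Nduf, Uqcr, Uqcc, Cox and a digit, or Atp5, and the rows Sdha to Sdhd. This gave 104 genes of 23282 rows. They comprised 36 subunits of complex I, 4 of complex II, 8 of complex III, 11 of complex IV and 15 of complex V, 19 assembly factors, and 11 other genes, mostly isoforms known from muscle, testis or low oxygen. The rule itself uses no measured value, although it was set with earlier results of these data known. A gene was tested, meaning compared, if either library held at least 10 of its reads, and 99 of the 104 genes and 12164 genes in all met this minimum.

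The control group and the TSA group were each 1 culture and 1 library. Both came from naïve CD4+ T cells isolated from the spleen of young adult, female, wild-type C57BL/6 mice, activated through CD3 and CD28 in the presence of TGF-β1, IL-2 and antibodies blocking IFN-γ and IL-4, and collected on day 1. The control culture received DMSO, the solvent, and the TSA culture received 10 μM Tubastatin A, which should not be confused with the pan-HDAC inhibitor Trichostatin A. The cultures were sequenced in bulk, and no sorting of Foxp3+ cells before RNA isolation is described. With 1 library per group there was no replicate, no test between the conditions was possible, and "higher" and "lower" describe the TSA library against the control library. Fewer cells of a kind and less RNA per cell cannot be told apart in bulk RNA.

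The libraries were QuantSeq libraries, in which a read marks the 3′ end of a polyadenylated transcript, so that counts do not scale with transcript length. The deposited values, log2 of a normalized count plus 1, were converted back to reads, which summed to 10845672 in the control and 10431770 in the TSA library. The gene Rn45s, the ribosomal RNA precursor, took 8.72% and 9.63% of the reads, and its part in the results was not tested beyond rescaling the libraries without it. Markers of CD4+ T cells were abundant in both libraries, with 15085 and 13170 reads over the 5 of 7 markers in the table. The reads of Foxp3 itself numbered 1633 and 965, and the part of this difference in the results was not tested. Markers of other cells were scarce. Over the whole lists there were 80 and 87 reads for CD8 T cells, 12 and 15 for B cells, 58 and 40 for myeloid cells, 0 and 1 for NK cells, 32 and 45 for erythroid cells and 1 and 11 for muscle. The defining genes Klrb1c and Myh7 were at 0 in both libraries.

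Oxidative phosphorylation takes electrons from NADH at complex I and from succinate at complex II, passes them through ubiquinone, complex III and cytochrome c to oxygen at complex IV, and uses the proton gradient so formed to make ATP at complex V. A few core subunits are encoded by mitochondrial DNA, and all others are encoded in the nucleus and imported. Assembly factors insert cofactors or hold subunits in place but are not part of the finished enzyme. Activated T cells expand their mitochondria, and Treg cells are known to depend on oxidative metabolism more than many effector T cells do. The 13 subunits encoded by mitochondrial DNA were not analysed here.

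The genes lay on 19 chromosomes in GENCODE M21 on GRCm38, the assembly that mm10 denotes, and 3 of them lay on the X chromosome. Promoter sequences were available from RefSeq on GRCm38.p6 for 86 of the 104 genes, from 250 bases before to 50 bases after the start of transcription. Both strands were searched for short motifs of factors known for respiratory genes. The motif of NRF1, GCGCATGCG, was found in 10 of the 86 windows (11.6%), against 3.83% of 9682 tested genes and 1.81% of 27025 promoters. The motif of YY1, AAGATGGC, was found in 13 windows (15.1%), against 4.95% and 2.88%, and 7 of the 13 belonged to subunits of complex I. The motif of ETS factors including GABPA, CCGGAAG, was found in 21 windows (24.4%), against 19.2% and 9.12%. Among the other motifs, the CACGTG box of MYC was found in 9.30% of the windows against 10.5% of tested genes, the CCAAT box of NF-Y in 44.2% against 39.5%, and the GC box of SP1, GGGCGG, in 48.8% against 64.2%.

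Genes with the NRF1 or the ETS motif stood at both ends of the measured range. The median log2 fold change was -0.02 with the NRF1 motif and -0.01 without it, and 0.02 with the ETS motif and -0.03 without it. For the YY1 motif the medians were -0.13 with it and 0.002 without it. The NRF1 and ETS motifs are shown in 4 promoters, 1 pair each, with the matching letters in capitals. Sequences are given 5′ to 3′ in the direction of the gene. The 4 genes were the lowest or highest of their class by fold change, and none of them carried the YY1 motif. In each pair the first gene was lower and the second higher in the TSA library. Uqcrc1, at chr9:108936398-108936697 on the plus strand, and Ndufaf5, at chr2:140170396-140170695 on the plus strand, carried the NRF1 motif, in each case as overlapping matches on both strands that merge into 1 run of capitals. Cox15, at chr19:43752951-43753250 on the minus strand, and Sdhd, at chr9:50603800-50604099 on the minus strand, carried the ETS motif, in Sdhd as its reverse complement CTTCCGG.
Uqcrc1: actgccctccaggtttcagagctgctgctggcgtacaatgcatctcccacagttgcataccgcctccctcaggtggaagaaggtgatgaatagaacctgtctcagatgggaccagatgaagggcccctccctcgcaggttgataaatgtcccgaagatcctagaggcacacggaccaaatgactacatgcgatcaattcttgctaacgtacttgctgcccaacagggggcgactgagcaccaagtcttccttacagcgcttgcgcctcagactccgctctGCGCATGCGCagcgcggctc
Ndufaf5: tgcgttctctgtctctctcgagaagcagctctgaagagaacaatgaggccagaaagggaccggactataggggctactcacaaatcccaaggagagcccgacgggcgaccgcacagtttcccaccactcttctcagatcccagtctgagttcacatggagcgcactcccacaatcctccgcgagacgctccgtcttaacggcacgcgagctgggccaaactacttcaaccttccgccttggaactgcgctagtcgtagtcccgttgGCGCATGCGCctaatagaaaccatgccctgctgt
Cox15: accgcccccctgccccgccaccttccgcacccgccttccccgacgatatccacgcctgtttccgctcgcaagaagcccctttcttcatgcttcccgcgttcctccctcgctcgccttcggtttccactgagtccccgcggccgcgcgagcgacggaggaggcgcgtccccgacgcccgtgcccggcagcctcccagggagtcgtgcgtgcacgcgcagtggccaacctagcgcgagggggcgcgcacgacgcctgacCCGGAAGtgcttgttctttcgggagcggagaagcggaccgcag
Sdhd: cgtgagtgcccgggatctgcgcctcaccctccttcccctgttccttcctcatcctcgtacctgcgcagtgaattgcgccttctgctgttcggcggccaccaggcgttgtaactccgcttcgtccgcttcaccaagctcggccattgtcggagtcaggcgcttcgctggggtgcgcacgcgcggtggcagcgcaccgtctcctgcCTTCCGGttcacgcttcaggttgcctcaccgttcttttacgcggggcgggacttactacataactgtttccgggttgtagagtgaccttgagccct
A match is a run of letters and no evidence of binding.

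**Figure D1:**
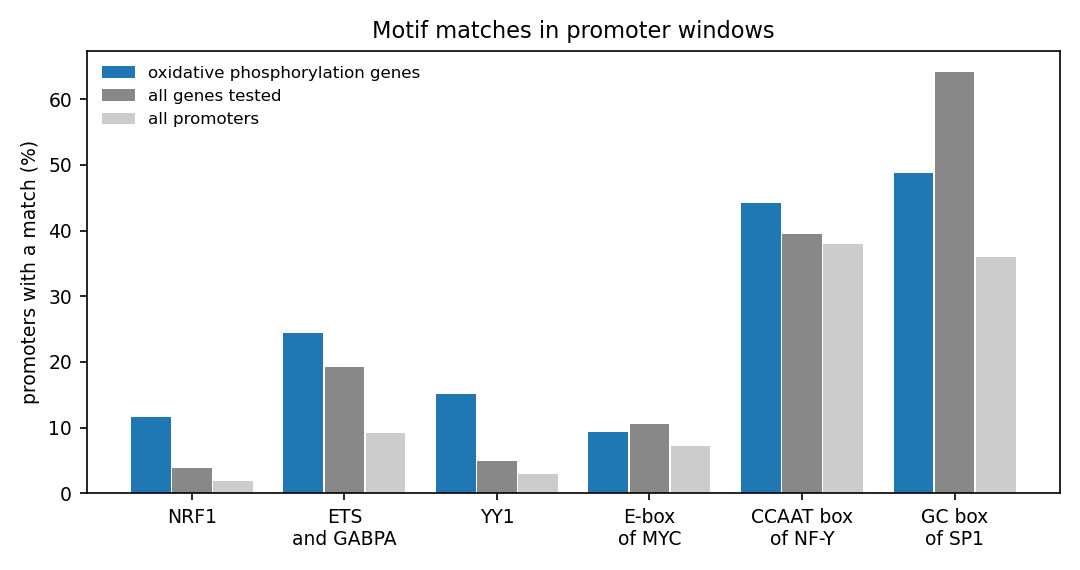
Share of promoter windows, in percent, that hold each of 6 motifs, for the oxidative phosphorylation genes (86 windows), all tested genes (9682) and all promoters (27025). The bars for NRF1 and YY1 stand highest over those of all tested genes, at 11.6% against 3.83% and 15.1% against 4.95%, while the GC box is less frequent than in tested genes.

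Messages for oxidative phosphorylation took a similar share of the reads in control and TSA-treated cells. The 104 genes held 191986 control and 189737 TSA reads, which were 1.77% and 1.82% of all reads on genes. The median log2 fold change, TSA minus control, of the 99 genes tested was -0.03, beside 0.02 for all genes tested and -0.06 for the 8188 genes averaging 100 or more normalized counts, the range in which most of these genes lie. The sign of the members' median changed with 3 of 4 other scalings of the libraries, which gave values from 0.01 to 0.05. At least 100 reads were found in both libraries for 96 of the 104 genes. For 14 genes the annotated transcript end overlaps another coding gene, in 12 cases on the other strand, and 10 genes have among them 12 named copies in GENCODE, so that counts of these genes are less certain.

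Of the 99 genes, 1 passed 2-fold upward and 0 passed it downward, where 11.5% of all genes tested were higher and 3.15% lower by that much. The gene was Cox6b2, which rested on 22 and 49 reads. At 1.5-fold, 1 gene was higher and 3 were lower, namely Cox15, Cox11 and Cox7a1, beside 18.7% and 8.34% of all genes tested. Of the 99 genes, 75 (75.8%) differed by less than 1.2-fold in either direction, as did 63 of the 74 subunits (85.1%), 44.3% of all genes tested and 56.1% of genes averaging 100 or more normalized counts.

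The depth set how small a difference could be told from counting error. The 95% interval of the ratio of reads, an exact Clopper-Pearson interval that covers counting error only, lay above no change for 23 genes and below it for 36, while for 40 it included no change. Over all genes tested the shares were 28.1% above and 28% below. In the abundant genes, those averaging 100 or more normalized counts, 23.4% lay above and 36.5% below, beside 23.2% and 36.4% of the oxidative phosphorylation genes. The sign of small differences depends on how the libraries are scaled. Of the 99 genes, 55 were lower as deposited (55.6%, beside 48.6% of all genes tested). Under scaling to total reads without Rn45s, 42 were lower (42.4%, beside 40.5%). An interval on the same side under the deposited scaling and 4 others was found for 23 genes that were higher (23.2%) and 24 that were lower (24.2%). The shares were 27.9% and 20.6% of all genes tested, and 23.3% and 26.3% of abundant genes.

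**Figure D2:**
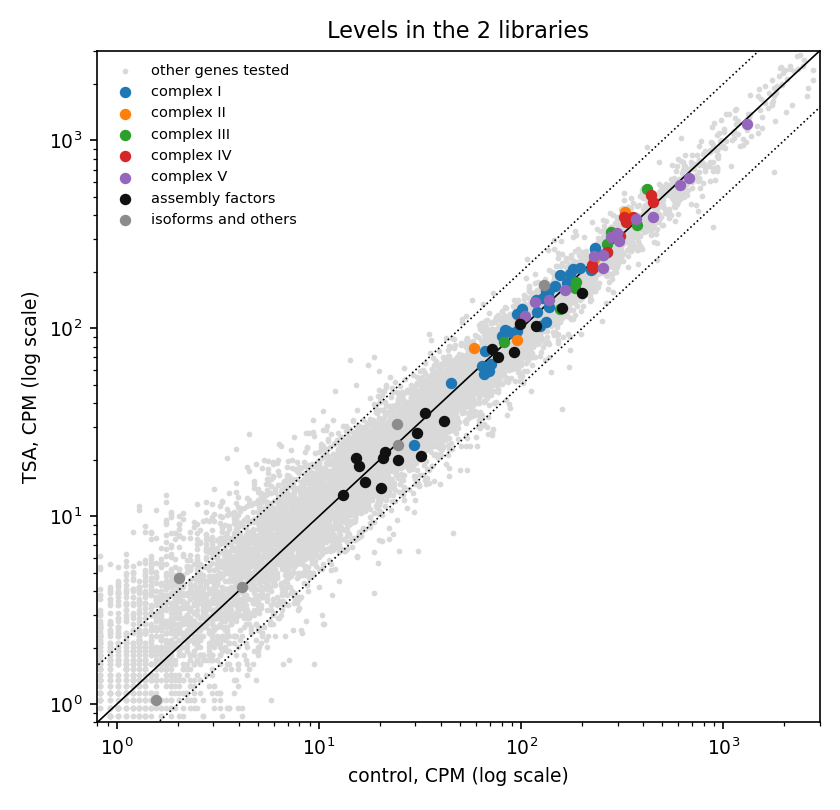
Reads scaled to a common library total (CPM) in the control library (x axis) and the TSA library (y axis), both on log scales, for each gene, with oxidative phosphorylation genes coloured by complex and other tested genes in grey. The solid line marks equal levels and the dotted lines a 2-fold difference, genes outside the axes are not drawn, and Cox6b2, at the lower left, is the coloured point outside the dotted lines.

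Each complex had subunits on both sides of no change, and the classes with the lowest medians were the assembly factors and complex V. The median log2 fold change was 0.05 for complex I, 0.12 for complex II, -0.09 for complex III, 0.04 for complex IV, -0.11 for complex V and -0.20 for the assembly factors. The highest and lowest subunit of complexes I to V stood at 0.36 and -0.37. Since abundant genes were on balance lower, each median was set beside that of all tested genes in the same range of counts. These were -0.09 for the range of complex I, -0.12 for complex II, -0.13 for complexes III, IV and V, and -0.06 for the assembly factors. Against its own range, the median of complex V was close, those of the other complexes were higher, and that of the assembly factors was lower. Summed reads gave a TSA-to-control ratio of 1.01 for complex I (95% counting interval 0.999 to 1.02), 1.09 for complex II (1.06 to 1.12), 1.01 for complex III (0.991 to 1.03) and 1.02 for complex IV (1.004 to 1.033). The ratios were 0.921 for complex V (0.911 to 0.932) and 0.840 for the assembly factors (0.818 to 0.863). These ratios use the deposited scaling, and another scaling multiplies all of them by a common factor. The weight of a TSA read relative to a control read was 0.990 as deposited and 0.989 to 1.05 under the other scalings. Whether an interval near 1 includes no change therefore depends on the scaling.

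**Figure D3:**
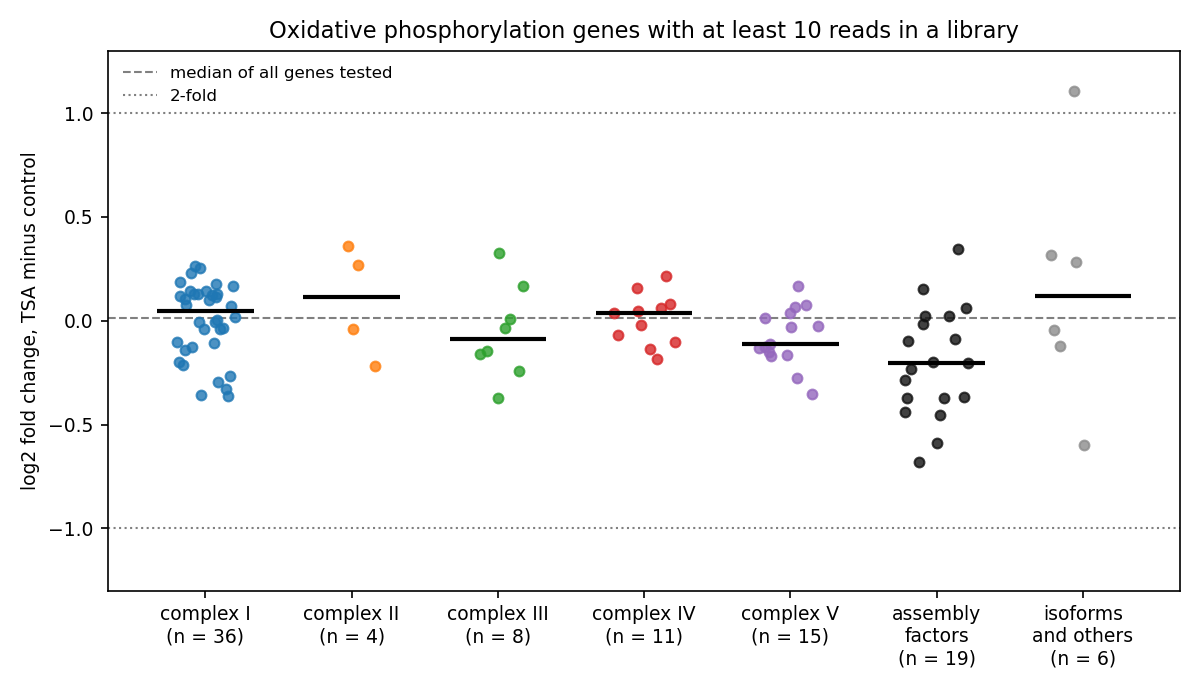
Log2 fold change (TSA minus control) of each gene tested, by complex, with a bar at the median of each class, a dashed line at the median of all genes tested and dotted lines at 2-fold. The assembly factors have the lowest median, -0.20, and Cox6b2, at 1.11, is the point past the upper dotted line.

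Complex I, the NADH dehydrogenase through which most electrons enter the chain, had 11 subunits above (30.6%) and 10 below (27.8%) no change by their intervals, and 15 that included it. Over all genes tested the shares were 28.1% and 28%, and over abundant genes, the range in which all these subunits lie, 23.4% and 36.5%. Of the 10 intervals below, 6 stayed below under every scaling. Ndufv1, the subunit that binds FMN and NADH, had 1433 control and 1126 TSA reads, at a log2 fold change of -0.36 (fold change 0.778, 95% interval 0.719 to 0.842). Ndufb7, a supernumerary subunit of the membrane arm that faces the intermembrane space, had 1094 and 1326 reads, at a log2 fold change of 0.26 (interval of the fold change 1.11 to 1.301).

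The 7 nuclear-encoded core subunits, which hold the flavin and the iron-sulfur clusters of the electron path, counted 5 lower and 2 higher. The share lower was 71.4%, beside 48.6% of all genes tested and 57.1% of abundant genes. Intervals lay below no change for 3 (42.9%, beside 28% and 36.5%) and above it for 1 (14.3%, beside 28.1% and 23.4%). The median of the core, -0.04, changed sign with 3 scalings. Ndufs3 had 749 and 616 reads (log2 fold change -0.30) and Ndufs7, which carries the last cluster before ubiquinone, had 712 and 597 reads (-0.27). Both were lower under each scaling tried. Ndufs1, the largest core subunit and carrier of several clusters, went the other way, with 904 and 1026 reads (0.17). Others of the core were nearly level. Ndufv2, partner of Ndufv1 in the NADH module, had 1820 and 1829 reads, and Ndufs8, an iron-sulfur subunit, had 973 and 984. The sign of these small differences changed with the scaling, for Ndufv2 with 3 of the 4 others and for Ndufs8 with 1.

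The 29 supernumerary subunits, which surround the core and stabilise it, had a median of 0.10, with 10 intervals above no change (34.5%, beside 28.1% of all genes tested and 23.4% of abundant genes) and 7 below (24.1%, beside 28% and 36.5%). Ndufs4, whose loss is used as a mouse model of Leigh syndrome, had 1286 control and 1475 TSA reads, at a log2 fold change of 0.18 (interval of the fold change 1.05 to 1.22). By symbol, 9 of the 10 Ndufb genes, which encode membrane-arm subunits, were higher (90%, beside 51.3% of all genes tested and 42.8% of abundant genes), with a median of 0.12 and 4 intervals above no change (40%, beside 28.1% and 23.4%). Ndufb2, which overlaps Braf at its transcript end, was the exception, with 698 and 654 reads. Of the 13 Ndufa genes 8 were lower (61.5%, beside 57.1% of abundant genes), with a median of -0.10, close to the -0.09 of genes in the range of complex I. As deposited, 7 of their intervals lay below no change (53.8%) and 4 above (30.8%), and under every scaling 3 stayed below and 4 above. The highest were Ndufa6, with 1694 and 2003 reads (0.23), and Ndufa7, with 1440 and 1646 (0.18). The lowest were Ndufab1, the mitochondrial acyl carrier protein, with 319 and 251 reads (-0.36), and Ndufa11, with 1341 and 1078 reads (-0.33). Ndufa11 and Ndufab1 have named copies, Ndufa11b and Ndufab1-ps, so their reads are less certain.

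Complex II, the succinate dehydrogenase that also works in the TCA cycle, was split between its subunits. Sdhb, the iron-sulfur subunit, had 3554 control and 4322 TSA reads, at a log2 fold change of 0.27 (fold change 1.204, interval 1.15 to 1.26). Sdhd, which anchors the enzyme in the membrane and whose promoter is printed above, had 632 and 819 reads, at a log2 fold change of 0.36 (1.28, interval 1.16 to 1.43). The other anchor, Sdhc, had 1036 and 900 reads and a log2 fold change of -0.22 (0.860, interval 0.786 to 0.942). Sdha, the flavoprotein that oxidises succinate, was level, with 2480 and 2439 reads and a sign that changed with 3 scalings. Thus both membrane anchors, which form 1 unit of the enzyme, differed in opposite directions.

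Complex III, which passes electrons from ubiquinol to cytochrome c, likewise held values on both sides. Uqcrc1, a core protein of the matrix side with the NRF1 motif shown above, had 1697 control and 1325 TSA reads, at a log2 fold change of -0.37 (fold change 0.773, interval 0.719 to 0.831), and was the lowest of all subunits. Its partner Uqcrc2 was level, with 2883 and 2923 reads. Uqcrfs1, the Rieske iron-sulfur protein, had 2023 and 1845 reads (-0.15), an interval below no change as deposited but not under every scaling. Uqcrh, the hinge protein that helps cytochrome c dock, was the highest of the complex with 4568 and 5787 reads, at a log2 fold change of 0.33 (1.254, interval 1.21 to 1.304). GENCODE lists the pseudogene copies Uqcrh-ps1 and Uqcrh-ps2, so the reads of Uqcrh may hold some of theirs. Cyc1, the cytochrome c1 of the complex, falls outside the symbol rule and had 1830 and 1652 reads (-0.16).

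Complex IV, the cytochrome c oxidase, had the narrowest range of the 5 complexes, with all 11 subunits between -0.19 and 0.22 on the log2 scale. Cox4i1, among the first nuclear subunits to join the core, had 3353 control and 3224 TSA reads (-0.07), and its sign changed when Rn45s was left out of the total. Cox5a had 3208 and 3328 reads (0.04). Cox5b, the zinc-binding subunit, was the lowest, with 2460 and 2183 reads (-0.19, interval of the fold change 0.829 to 0.931). Cox6c was the highest, with 3481 and 4086 reads (0.22, interval 1.11 to 1.22), and Cox7a2, with 4739 and 5344 reads (0.16), also stayed above no change under each scaling. For Cox6c, a copy named Cox6c2 and the gene Vps13b, whose annotated end overlaps on the other strand, make the count less certain.

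Complex V, the ATP synthase, had 8 of 15 subunits (53.3%) with an interval below no change and 1 above it, beside 28% of all genes tested and 36.5% of abundant genes below. Under every scaling 5 of the 8 stayed below (33.3%, beside 20.6% and 26.3%). The 5 subunits of F1, the soluble head that makes ATP, were all lower, as deposited and under each of the 4 other scalings, and all 5 intervals lay below no change as deposited. The intervals of 3 of them, but not of Atp5c1 and Atp5e, stayed below under every scaling. Their summed reads were 23994 in the control and 21461 in the TSA library, a ratio of 0.886 (0.870 to 0.902) under the deposited scaling. The differences were small. Atp5b, the catalytic subunit, had 6643 and 6046 reads (log2 fold change -0.15), and Atp5a1, its partner in the ring, had 7371 and 6616 reads (-0.17). Atp5c1, the rotating central shaft, had 1785 and 1666 reads (-0.11), and its named copy Atp5c1-ps makes the count less certain. The largest difference in F1 was that of Atp5d, the delta subunit of the shaft, with 4890 and 4081 reads (-0.28), and Atp5e, the smallest subunit by size, had 3305 and 3052 (-0.13). Beside this, 57.1% of genes averaging 100 or more normalized counts were lower as deposited, and the median of F1, -0.15, lay close to that of genes in the range of complex V, -0.13.

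By sign as deposited, the 10 subunits of Fo, the membrane part, and of the stalk were evenly split, 5 lower and 5 higher. The share lower was 50%, beside 48.6% of all genes tested and 57.1% of abundant genes. Intervals lay below no change for 3 (30%, beside 28% and 36.5%) and above it for 1 (10%, beside 28.1% and 23.4%). Their summed reads gave a ratio of 0.945 (0.931 to 0.959) under the deposited scaling. Atp5g1, Atp5g2 and Atp5g3 encode the same mature c-ring subunit with different targeting peptides. Atp5g3 had 14191 control and 12791 TSA reads (-0.16), the most reads of the 104 genes. Atp5g1 had 2760 and 2180 reads, at a log2 fold change of -0.35 (0.782, interval 0.739 to 0.828), the lowest of the complex. Atp5g2 was level, with 2484 and 2532 reads. The share of Atp5g1 in the reads of the 3 genes was 14.2% in the control library (exact binomial 95% interval 13.7 to 14.7) and 12.5% in the TSA library (12.0 to 13.0). That of Atp5g2 was 12.8% (12.3 to 13.3) and 14.5% (13.9 to 15.0), and that of Atp5g3 was 73.0% and 73.1%. These shares do not depend on the scaling of the libraries. Atp5j, coupling factor 6 of the stalk, was the highest subunit of the complex, with 1267 and 1435 reads (0.17).

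**Figure D4:**
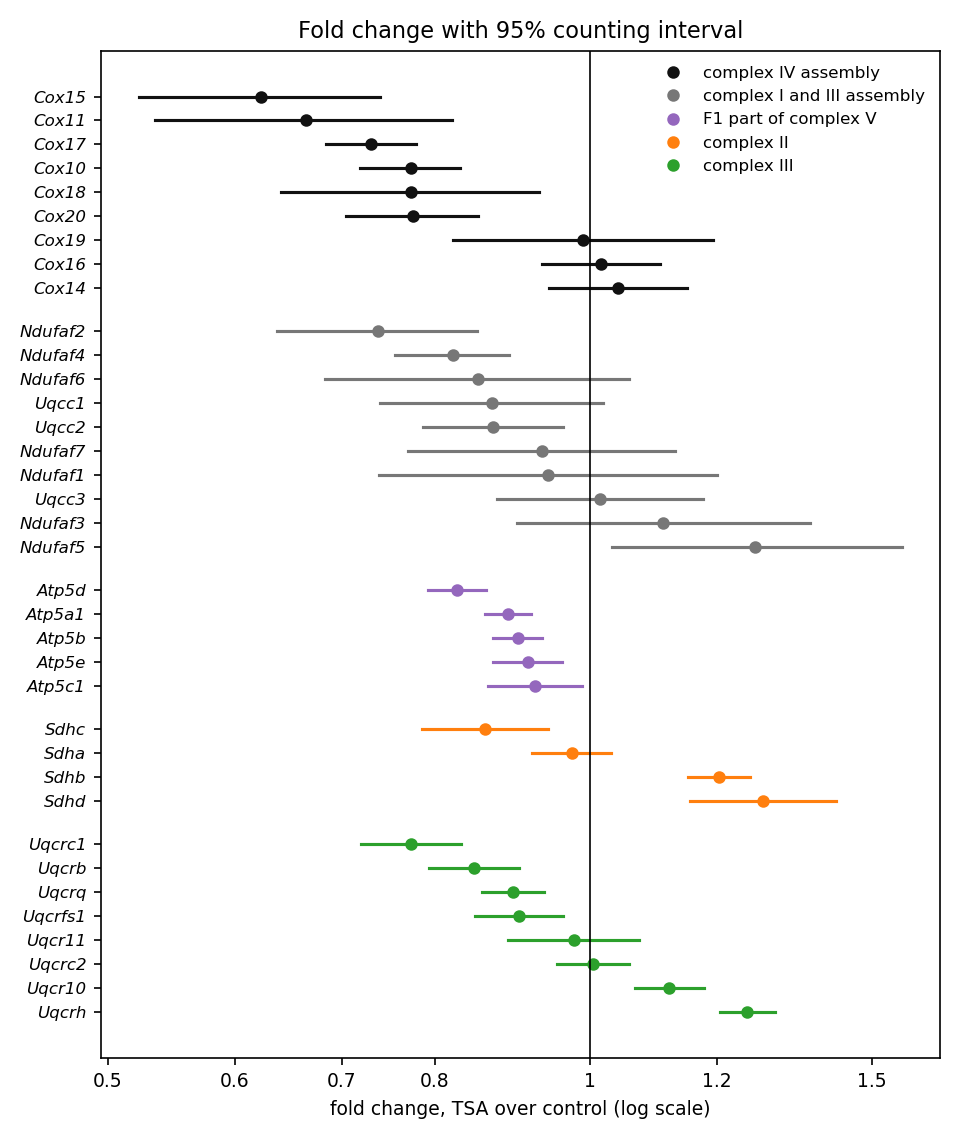
Fold change (TSA over control, log scale) with its 95% Clopper-Pearson interval, counting error only, for the assembly factors and the subunits of F1, complex II and complex III. Cox15, Cox11, Cox17, Cox10, Cox18 and Cox20 lie below 1 with their whole interval, as do the 5 subunits of F1, while complexes II and III have subunits on both sides.

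Assembly factors were on balance the lowest class. Of the 19, 14 were lower (73.7%, beside 48.6% of all genes tested and 57.1% of abundant genes). Intervals lay below no change for 9 and above it for 1 (5.26%, beside 28.1% and 23.4%). Of the 9, 8 stayed below no change under each scaling. As shares of the 19 these 9 and 8 were 47.4% and 42.1%, beside 28% and 20.6% of all genes tested and 36.5% and 26.3% of genes averaging 100 or more normalized counts. The median of the assembly factors was 0.20 below that of the subunits on the log2 scale (difference -0.20), and this gap does not depend on the scaling. With 1 library per group, neither the gap nor these shares have a replicate check.

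Among the 19, the lower values were mainly in complex IV assembly. There 7 of 9 genes were lower (77.8%, beside 48.6% of all genes tested and 57.1% of abundant genes), counting Cox19 at -0.01. Under each scaling 6 intervals lay below no change (66.7%, beside 20.6% and 26.3%). Complex IV assembly factors with other symbols, given below, were more mixed. Heme A, the cofactor that only complex IV uses, is made in steps by Cox10 and Cox15. Cox10, the farnesyltransferase that acts first, had 1723 control and 1344 TSA reads, at a log2 fold change of -0.37 (0.773, interval 0.719 to 0.830). Cox15, the heme A synthase with the ETS motif shown above, had 347 and 218 reads, at a log2 fold change of -0.68 (0.623, interval 0.523 to 0.739), the lowest of the 19. Both genes of the heme A path were therefore lower by more than counting error.

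Copper reaches complex IV through a relay of chaperones. Cox17, the intermembrane-space copper chaperone, had 2172 and 1601 reads, at a log2 fold change of -0.45 (0.730, interval 0.684 to 0.779). Cox11, which delivers copper to the Cox1 subunit, had 221 and 148 reads, at a log2 fold change of -0.59 (0.665, interval 0.535 to 0.820). Cox19, which acts with Cox11, was level, with 230 reads in each library. Cox18, which moves part of the Cox2 subunit across the inner membrane, had 268 and 209 reads (-0.37), and Cox20, a chaperone of Cox2, had 1001 and 783 (-0.37). Cox14 (774 and 814 reads) and Cox16 (1066 and 1094 reads), which act early on Cox1 and Cox2, did not differ by more than counting error.

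For 4 of these 9 genes the annotated transcript end overlaps another coding gene, and whether reads were counted by strand is not given in the sources used here. Hnrnpu, which overlaps Cox20, had 8882 and 7642 reads and was lower as well (-0.23). Cox20 also has a named copy, Cox20b, so its reads are less certain. Entpd7, which overlaps Cox15, had 231 and 278 reads, and Tom1l1, which overlaps Cox11, had 7 and 10, so neither of these partners was lower in the TSA library. The other 1 of the 4 is Cox16, whose end overlaps Gm20498 on the same strand. Without the 4 genes, the median of complex IV assembly was -0.37. Of the 5 genes left, 4 were lower (80%, beside 48.6% of all genes tested and 57.1% of abundant genes), counting Cox19, which was level at -0.01. Intervals lay below no change for 3 (60%, beside 28% and 36.5%).

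The median of complex IV assembly was -0.37, and those of complex I and complex III assembly lay nearer to no change. Of 7 complex I factors 5 were lower (71.4%, beside 48.6% of all genes tested and 57.1% of abundant genes), with a median of -0.10. Intervals lay below no change for 2 (28.6%, beside 28% and 36.5%) and above it for 1 (14.3%, beside 28.1% and 23.4%). Ndufaf2, a chaperone of late assembly, had 453 and 337 reads, at a log2 fold change of -0.44 (interval of the fold change 0.638 to 0.850), and Ndufaf4 had 1290 and 1069 reads (-0.29). Ndufaf5, a hydroxylase of Ndufs7 and the other bearer of the NRF1 motif printed above, was the highest of the 19, with 166 and 213 reads, at a log2 fold change of 0.34 (1.27, interval 1.03 to 1.57). Its substrate Ndufs7 was lower, as given above. The 3 Uqcc genes act in the synthesis and assembly of cytochrome b. Uqcc1 (332 and 291 reads) and Uqcc2 (831 and 730) both had a log2 fold change of -0.20, and Uqcc3 (361 and 370) was level. Their median was -0.20, about that of all 19 assembly factors.

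Several genes known as tissue-specific isoforms had few or no reads beside the isoforms that most tissues use. Cox6a2, Cox7b2 and Cox8c had 0 reads in both libraries, where a count of 0 allows up to 3 reads, which equal 0.277 CPM, or counts scaled to a common library total, in the control and 0.288 CPM in the TSA library. Cox8b had 1 control and 0 TSA reads, and Cox4i2, an isoform known from lung and low oxygen, had 0 and 2, and no fold change is given. Their counterparts Cox6a1 (4896 and 4880 reads), Cox7b (2421 and 2279), Cox8a (3876 and 4081) and Cox4i1 had many more reads. The sign for Cox6a1 changed with 3 scalings.

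Cox6b2, the testis isoform of Cox6b, was the gene past 2-fold, with 22 control and 49 TSA reads, at a log2 fold change of 1.11 (fold change 2.15, interval 1.31 to 3.83). It made up 0.612% (0.384 to 0.925) of the reads of Cox6b1 and Cox6b2 in the control and 1.27% (0.939 to 1.67) in the TSA library, and Cox6b1 had 3574 and 3818 reads. Cox7a1, the muscle isoform, had 17 and 11 reads, and its interval, 0.271 to 1.45, included no change. Muscle markers summed to 1 control and 11 TSA reads, and their part in the counts of these isoforms was not tested.

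Cox7a2l, known as a factor that joins complexes III and IV into supercomplexes, had 1408 and 1772 reads, at a log2 fold change of 0.32 (1.246, interval 1.16 to 1.34). Ndufa4, now counted as a subunit of complex IV, had 1067 and 1115 reads, and its hypoxia-induced relative Ndufa4l2 had 268 and 249. Ndufa4l2 made up 20.1% (18.0 to 22.3) of the reads of the pair in the control and 18.3% (16.2 to 20.4) in the TSA library, and these intervals overlap. The transcript end of Ndufa4l2 overlaps Shmt2 on the other strand, which had 3188 and 2869 reads, so without strand-specific counting the origin of its reads cannot be told. Atp5s, known as distal membrane arm assembly component 2-like, had 45 and 44 reads, and Atp5sl, a factor of complex I assembly, had 264 and 325 (0.29). Both were placed by their ATP synthase symbols among the other genes and are not counted with the assembly factors, of which Atp5sl would be the other with an interval above no change.

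Genes that serve the same enzymes under other symbols were compared with those above, from lists matched by symbol. Of 93 names outside the mitochondrial ribosome 80 were found, and the 13 not found were the subunits encoded by mitochondrial DNA. The 34 other assembly factors had a median of -0.16 on the log2 scale, with 21 lower, 13 intervals below no change and 6 above. The share lower was 61.8%, beside 48.6% of all genes tested and 57.1% of abundant genes. Below no change lay 38.2%, beside 28% and 36.5%, and above it 17.6%, beside 28.1% and 23.4%. Some of the 34 averaged fewer than 100 normalized counts. The median of all tested genes in their range of counts was -0.002, higher than that of the 34. Members lay far on either side. The 16 of complex IV had a median of -0.15, with 9 lower (56.25%), and their summed reads a ratio of 1.01 (0.980 to 1.04) as deposited. Under every scaling 5 intervals stayed below no change (31.25%, beside 20.6% of all genes tested and 26.3% of abundant genes). Above it stayed 4 (25%, beside 27.9% and 23.3%). Among these 16, Cmc1, which stabilises newly made Cox1, had 397 control and 729 TSA reads (0.86). Surf1, known for its mutation in Leigh syndrome, had 124 and 207 (0.72). Sco2, a copper chaperone of Cox2, had 428 and 282 reads (-0.61) and Coa7 had 439 and 282 (-0.65). For complex I, Timmdc1, which builds the membrane arm, had 424 and 254 reads (-0.75), and Nubpl, which delivers iron-sulfur clusters, had 45 and 70 (0.61). Sdhaf4, an assembly factor of complex II, had 214 and 347 reads (0.68), and Sdhaf3, another, had 35 and 19 (-0.86).

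Among genes that act on or next to the finished complexes, Atpif1, the inhibitor of the ATP synthase, was higher. It had 1265 control and 2034 TSA reads, at a log2 fold change of 0.67 (1.59, interval 1.48 to 1.71), while the F1 subunits it binds were lower. Cycs, the soluble cytochrome c, had 2356 and 1919 reads (-0.31, interval of the fold change 0.759 to 0.857). Pdss1, which makes the tail of ubiquinone, had 248 and 159 reads (-0.65), while its partner Pdss2 had 11 and 27 (1.21). Of the electron transfer flavoprotein, which feeds electrons from fat oxidation to ubiquinone, Etfa had 319 and 442 reads (0.46) and Etfb 1341 and 1708 (0.34), but its dehydrogenase Etfdh had 209 and 159 (-0.41). The 15 genes of electron carriers and ubiquinone synthesis had a median of -0.10. Of these, 8 were lower (53.3%, beside 48.6% of all genes tested and 57.1% of abundant genes). Intervals lay below no change for 5 (33.3%, beside 28% and 36.5%) and above it for 3 (20%, beside 28.1% and 23.4%).

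The nuclear regulators of respiratory genes lay on both sides. Of 13 tested genes of mitochondrial transcription and its regulators, 10 were lower (76.9%, beside 57.1% of abundant genes), with a median of -0.22. As deposited, 8 intervals lay below no change (61.5%, beside 28% of all genes tested and 36.5% of abundant genes) and 2 above. Under every scaling 3 stayed below (23.1%, beside 20.6% and 26.3%). Nrf1 had 506 and 398 reads (-0.36), Gabpa 298 and 227 (-0.41), and Esrra, the estrogen-related receptor that works with PGC-1 coactivators, 1944 and 1542 (-0.35). Yy1 had 1414 and 1257 reads (-0.18) and Tfam, which packages and transcribes mitochondrial DNA, 894 and 776 (-0.22), and neither stayed below no change under every scaling, nor did Tfb1m, Tfb2m or the helicase Twnk. Ppargc1b, the coactivator PGC-1β, was higher with 265 and 386 reads (0.53), as was Polrmt, the mitochondrial RNA polymerase, with 144 and 228 (0.65). Ppargc1a, its better known relative PGC-1α, had 4 and 6 reads, too few to be tested.

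Other nuclear-encoded mitochondrial groups had lower medians than the respiratory subunits. The 77 mitochondrial ribosomal proteins, which make the mtDNA-encoded subunits, had a median of -0.18 on the log2 scale. Of these, 59 were lower (76.6%, beside 48.6% of all genes tested and 57.1% of abundant genes). As deposited, 46 intervals lay below no change (59.7%, beside 28% and 36.5%) and 10 above (13.0%, beside 28.1% and 23.4%). Under every scaling 33 stayed below (42.9%, beside 20.6% and 26.3%). The 14 enzymes of the TCA cycle had a median of -0.18, with 10 lower (71.4%, beside the same 48.6% and 57.1%). Intervals lay below no change for 8 (57.1%, beside 28% and 36.5%) and above it for 3 (21.4%, beside 28.1% and 23.4%). Under every scaling 4 of the 8 stayed below (28.6%, beside 20.6% and 26.3%). The enzymes above no change were Idh2, the NADP-dependent isocitrate dehydrogenase, with 451 and 719 reads (0.66), Suclg1 with 1268 and 1821 (0.51) and Mdh2 with 6007 and 6493 (0.10). The 74 subunits of complexes I to V had a median of -0.01, whose sign changed with 3 scalings, with 38 lower and 36 higher. It was -0.01 again for the 59 subunits left without genes that overlap at their transcript end or have named copies. The assembly factors (-0.20) thus lay nearer to the mitochondrial ribosomal proteins than to the subunits they serve. These groups were each measured in the same 2 libraries, and no test of the differences between them was made.

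**Figure D5:**
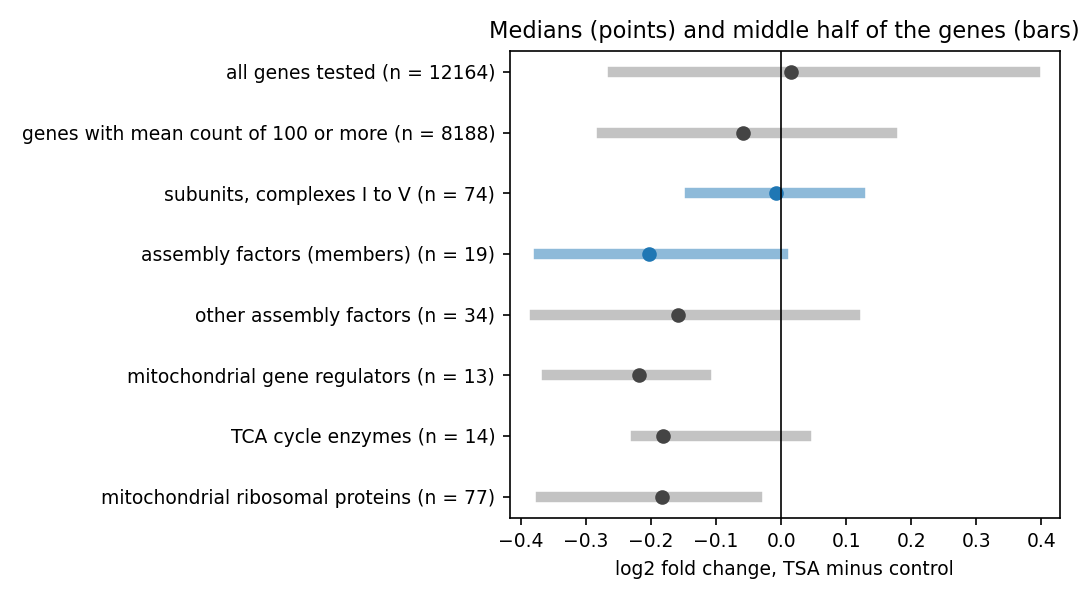
Median log2 fold change (TSA minus control, points) with the interquartile range over genes (bars) for the respiratory subunits and assembly factors in blue and comparison groups in grey. The subunits have their median near 0, at -0.01, and the assembly factors at -0.20 lie beside the mitochondrial ribosomal proteins and TCA cycle enzymes, both at -0.18.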

How the data were processed

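RNA of 2 groups, 1 control culture and 1 culture with TSA, was measured by QuantSeq 3′ sequencing. The authors deposited log2 values, each log2 of a normalized count plus 1, found from the values themselves. The submitters' processing notes name Bowtie2, bedtools and mm10, and the study's methods name ExDEGA. The counter, the annotation, the strand setting and the normalization are not given in the sources used here. The columns left unused numbered 0.

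One read was worth 1.005 normalized counts in the control and 0.995 in the TSA library, as the spacing of low values showed. Within 0.1 of a whole number lay 99.6% and 98.6% of values of 1 to 300 reads, and the reads so recovered summed to 10845672 and 10431770. In the control library, 1940 rows at 0.016 or less were read as 0. Rounding in the deposited values leaves an uncertainty of 0.0347% in a count.

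Fold changes are the TSA value minus the control value as deposited, which holds a pseudocount of 1 normalized count and understates the change of low genes. A gene needed at least 10 reads in a library to be compared. With 1 library per group no p-value was computed. Exact Clopper-Pearson 95% intervals of the read ratio, and the floor of 3 reads, cover counting error only, since PCR copies could not be told from other reads. The medians of genes in the same range used all tested genes between the lowest and highest mean count of a class. The other scalings were total reads, total reads without Rn45s, median of ratios and upper quartile. Transcript ends within 500 bases were checked for overlap in GENCODE M21. The steps were tested on simulated data.

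The members and lists were chosen with earlier results of these data known. By rule the text names the catalytic subunits, isoform families, genes past 2-fold, the highest and lowest of each class averaging 50 or more normalized counts, the 5 most abundant, those with an interval beyond 1.25-fold, and, of related genes, a list of regulators and carriers from Ppargc1a to Cyc1 and those past 1.5-fold averaging 50 or more normalized counts. Any other gene named was chosen after its values were seen. A gene that the rule covers is not reported here. Python 3.11.15, numpy 2.4.6, scipy 1.17.1 and pandas 2.3.3 were used.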

Additional observations from a re-analysis of the deposited data

How the results depend on the processing

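No paired analysis was possible because each group had 1 library, and no replicate could be left out. Pseudocounts of 0.1 and 5, median-of-ratios scaling and the filters on low counts moved no median by more than counting error. Scaling by total reads gave medians of 0.039 for all members, 0.117 for complex I, 0.185 for complex II, -0.020 for complex III, 0.109 for complex IV, -0.043 for complex V and -0.134 for the assembly factors. Without Rn45s these were 0.053, 0.131, 0.1995, -0.0057, 0.123, -0.029 and -0.119. With the upper quartile the values that moved were 0.011 for all members, 0.089 for complex I, -0.048 for complex III, 0.081 for complex IV, -0.071 for complex V and -0.161 for the assembly factors. The median of all members thus changed sign with 3 scalings, because rescaling adds 1 constant to every log2 value, while the order of the classes did not change. The number of genes past 2-fold was 1 as given, 0 with a pseudocount of 5 (Cox6b2 at 0.99), 3 with no filter, 0 averaging 50 or more normalized counts, 4 at 1.5-fold and 0 when the whole interval had to lie beyond 2-fold. Genes lower at any size numbered 42 to 56. An alternative chosen after seeing the data, leaving out assembly factors whose transcript end overlaps another coding gene, gave -0.202. Depth limits the silent isoforms, for which no difference was detectable.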
